A study of Mus musculus with 24 samples.

Results

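A set of 8 genes that make, move or break down GABA, or set the chloride gradient on which it acts, were followed in RNA of the medial prefrontal cortex (mPFC) of mice on postnatal day (P) 21. The 8 genes were chosen by symbol, out of 24972 listed, as Gad1, Gad2, Slc32a1, Slc6a11, Slc12a5, Slc12a2, Gphn and Abat, and each had 1 row in both expression tables. The series holds 24 libraries in 4 groups of 6, from saline-exposed (SAL) and morphine-exposed (MO) offspring of each sex. All animals were wild-type B6D2F1/J hybrids, bred from DBA/2J sires on C57BL/6J dams, and both sexes were collected on P21. MO dams had received morphine sulfate subcutaneously once a day from a week before breeding until weaning, at doses that rose over the first days to 10 mg/kg and then stayed there, and SAL dams had received saline on the same schedule. The drug was given to the dams alone, so offspring were exposed through gestation and lactation. The authors combined small litters soon after birth, which left 6 SAL dams, and 1 pup of each sex was taken per litter. Each male SAL animal therefore shared a rearing dam with a female SAL animal. MO dams barely outnumbered the MO pups taken of each sex, so most MO males shared a rearing dam with an MO female. Which animals are littermates is not given.

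GABA is the main inhibitory transmitter of the adult cortex. It is made from glutamate by glutamate decarboxylases, loaded into vesicles, cleared by transporters on neurons and astrocytes and broken down by a transaminase. Whether GABA-A receptors inhibit or depolarize depends on intracellular chloride, which the cotransporter KCC2 exports from mature neurons and NKCC1 imports, and the balance between these transporters shifts during early postnatal development.

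Gad1 and Gad2 encode the decarboxylases, and both lie on chromosome 2 of the mouse build GRCm38.p6 (Gad1 chr2:70561303-70602014, Gad2 chr2:22621015-22693877). Slc32a1 (chr2:158607260-158615747) encodes the vesicular GABA transporter and Slc12a5 (chr2:164960846-164999731) encodes KCC2. The others are Slc6a11 (chr6:114131241-114249886), the astrocytic GABA transporter GAT3, Gphn (chr12:78217325-78684772), the inhibitory synapse scaffold gephyrin, Abat (chr16:8513429-8621568), the GABA transaminase, and Slc12a2, which encodes NKCC1. RefSeq upstream sequences are shown for Gad1, Gad2 and Slc32a1, whose levels were compared for co-variation, and for both annotated starts of Slc12a5, whose transcripts were summed into 1 value per library. Each runs 5′ to 3′ on the + strand of GRCm38.p6 from 250 bases before the RefSeq start. It stops before the first GENCODE M21 exon of the gene within those bases, or before the RefSeq start where there is none. Capitals mark every match to a searched motif on either strand.
Gad1 (chr2:70561879-70562041): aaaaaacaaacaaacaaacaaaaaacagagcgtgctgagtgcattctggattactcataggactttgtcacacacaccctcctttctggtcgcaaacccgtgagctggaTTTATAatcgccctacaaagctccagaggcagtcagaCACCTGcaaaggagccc
Gad2 (chr2:22622077-22622204): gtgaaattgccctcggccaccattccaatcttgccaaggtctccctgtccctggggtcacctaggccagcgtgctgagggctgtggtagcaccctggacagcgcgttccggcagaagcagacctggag
Slc32a1 (chr2:158610508-158610757): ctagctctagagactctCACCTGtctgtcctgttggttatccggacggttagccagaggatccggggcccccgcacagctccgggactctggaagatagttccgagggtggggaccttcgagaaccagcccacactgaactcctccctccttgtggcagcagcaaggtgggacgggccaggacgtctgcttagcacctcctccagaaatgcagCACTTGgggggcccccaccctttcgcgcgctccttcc
Slc12a5 start 1 (chr2:164960596-164960801): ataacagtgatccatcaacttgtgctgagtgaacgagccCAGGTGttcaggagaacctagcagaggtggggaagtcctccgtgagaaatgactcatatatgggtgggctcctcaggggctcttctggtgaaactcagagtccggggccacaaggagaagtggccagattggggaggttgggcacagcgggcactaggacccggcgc
Slc12a5 start 2 (chr2:164967738-164967982): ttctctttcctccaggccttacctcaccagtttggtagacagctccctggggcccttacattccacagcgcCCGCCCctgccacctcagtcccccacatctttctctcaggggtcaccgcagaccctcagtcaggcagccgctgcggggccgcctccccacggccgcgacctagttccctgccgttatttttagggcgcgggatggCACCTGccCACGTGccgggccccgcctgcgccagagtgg
The first Slc12a5 window lies before the gene, and the other windows lie inside the RefSeq bounds of their genes. The motifs searched were the GC box GGGCGG, the TATA box TATAAA, the E-box CANNTG, the cyclic AMP response element TGACGTCA and the homeodomain core TAATTA. Gad1 held 1 TATA box match (on the opposite strand) and 1 E-box. These motifs were found on either strand in 7.78% and 52.1% of 32817 RefSeq promoter windows cut to the same length. Gad2 held none of the 5 motifs in its 128 bases. Slc32a1 held 2 E-boxes (66.2% of windows of its length hold at least 1). The first Slc12a5 window held 1 E-box (60.0% of windows), and the second held 2 E-boxes (65.7%) and 1 GC box (32.1%, on the opposite strand). GC content ranged from 46.6% for Gad1 to 66.5% at the second Slc12a5 start. No motif was shared by all 3 of the GABA synthesis and loading genes in these windows.

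Values are the authors' normalized counts, scaled separately for males and females, so levels were compared within a sex and not between the sexes. A single read was worth 0.781 to 1.18 normalized counts, which put the libraries at an estimated 13.3 to 20.1 reads (in units of 1000000) and the 8 genes at 659 reads or more in every library. The standard deviation from counting alone was therefore at most 3.90% of a value, by Poisson statistics and for counting error only. Of 7711 read-length (85 base) stretches of Gad1 transcripts, 23 also occur in the pseudogene Gad1-ps. For the other 7 genes none occur in GENCODE M21 transcripts of another gene, and the rest of the genome was not searched. Markers of cortical excitatory neurons and interneurons were present in all groups, and both sums were lowest in female MO library PFC1. There the excitatory sum was 29886 normalized counts (next 38679 in PFC7) and the interneuron sum was 11917 (next 13117 in PFC3). The astrocyte marker sum was highest in PFC1 (50287, next 35809 in PFC3). Female MO library PFC1 stood apart, with the highest sums of striatal projection neuron markers (8758 normalized counts) and of oligodendrocyte markers (180529), and male libraries PFC16 (SAL) and PFC13 (MO) also held more striatal marker RNA (7147 and 5078) than the other 21 libraries (2703 to 4193).

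Per length, Slc12a5 and Gad1 were the most abundant of the 8 genes and Slc12a2 was the least. In male SAL libraries, Slc12a5 averaged 1278 ± 44.1 normalized counts per kb of its longest coding transcript (SD, n = 6) and Gad1 averaged 1274 ± 71.4 (SD, n = 6). Abat followed at 888 ± 65.4, then Slc32a1 at 497 ± 44.8, Gad2 at 468 ± 45.5, Slc6a11 at 449 ± 46.3 and Gphn at 358 ± 10.8 (SD, n = 6 each). Slc12a2 was lowest, at 125 ± 16.3 per kb (SD, n = 6). The ranges of Slc12a5 and Gad1 overlapped, as did those of Slc32a1, Gad2 and Slc6a11, so neighbours within these groups did not differ beyond their spread, whereas Abat, Gphn and Slc12a2 each overlapped no neighbour. Female SAL libraries gave the same lowest pair, with Gphn at 345 ± 13.6 and Slc12a2 at 125 ± 25.2 per kb (SD, n = 6). There Gad1 (1220.2 ± 137) stood before Slc12a5 (1191 ± 155), an order that turned when all exons were counted as length (938 and 1157 per kb), and their ranges overlapped.

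The first question was whether perinatal morphine altered the GABA and chloride genes, and no difference passed the test in either sex. In males the decarboxylase genes had nearly equal means in both groups. Gad1 ranged from 3924 to 4546 normalized counts in SAL (median 4314) and from 3715 to 4831 in MO (median 4277). Its log2 fold change of MO against SAL was -0.00 (95% interval -0.12 to 0.12), and that of Gad2 was -0.00 (-0.17 to 0.16). Both Gad1 groups overlapped fully, with MO library PFC10 highest and MO library PFC19 lowest of the 12. Slc32a1 (-0.02), Gphn (-0.04), Slc6a11 (-0.06), Slc12a5 (-0.01) and Abat (0.03) had log2 fold changes of similar size. The widest male interval was that of Slc12a2, at a log2 fold change of 0.07 (-0.16 to 0.31), where MO library PFC15 reached 1218 normalized counts and the other MO libraries lay between 703 and 923.

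**Figure D1:**
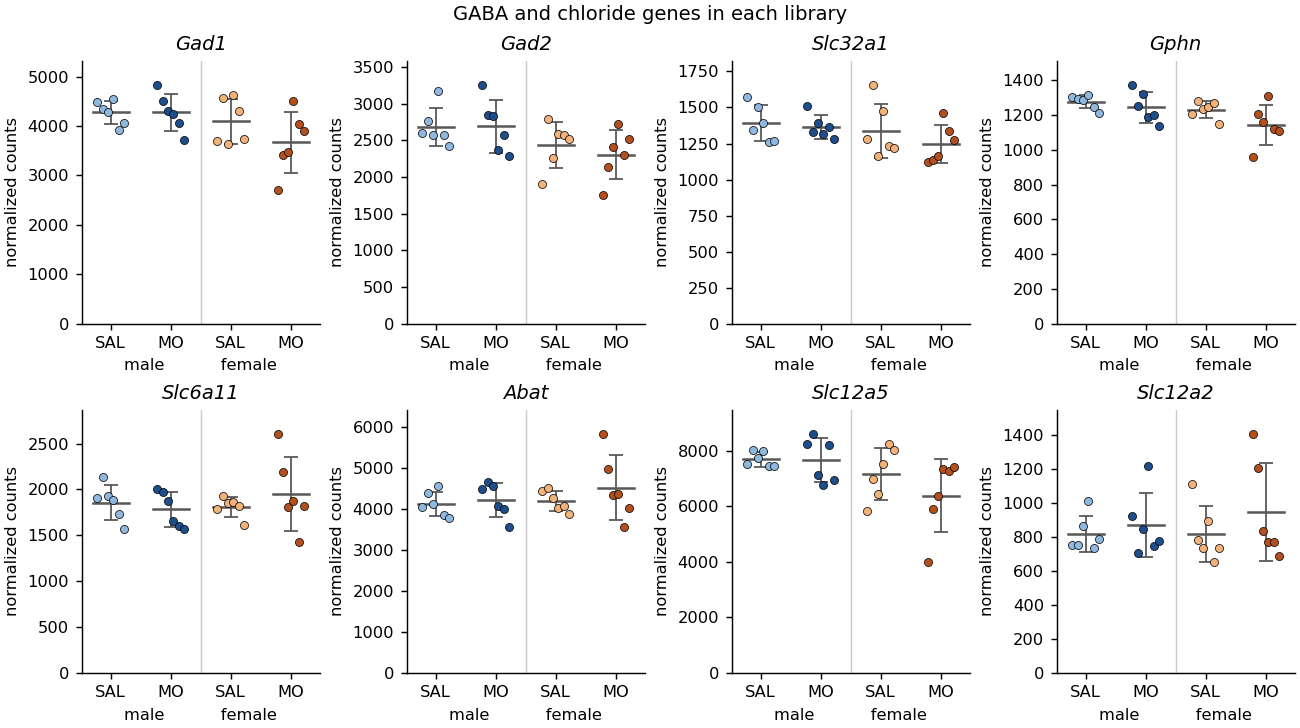
Normalized counts (y axis, from 0) of each of the 8 genes in every library, by drug and sex (x axis), with 6 libraries per group, lines at the mean and bars of 1 SD. MO and SAL points overlapped for every gene in both sexes, and the lowest Gad1 (2709) and Slc12a5 (3996) and the highest Slc12a2 (1406) points were those of female MO library PFC1.

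In females the point estimates were larger and the spread was wider. Gad1 ranged from 3630 to 4629 normalized counts in SAL (median 4025) and from 2709 to 4498 in MO (median 3687), a log2 fold change of -0.17 (95% interval -0.40 to 0.07). For Slc12a5 the SAL values lay between 5849 and 8245 (median 7246) and the MO values between 3996 and 7410 (median 6815), a log2 fold change of -0.19 (-0.49 to 0.11). Slc12a2 ranged from 650 to 1111 in SAL (median 758) and from 690 to 1406 in MO (median 804), a log2 fold change of 0.18 (-0.18 to 0.54). For each of these 3 genes the MO and SAL ranges overlapped, and PFC1 was the lowest MO library for Gad1 and Slc12a5 and the highest for Slc12a2. Gphn had the smallest p of the 8 genes, with 1150 to 1285 normalized counts in SAL (median 1240) and 959 to 1309 in MO (median 1139). Its log2 fold change was -0.11 (-0.26 to 0.04, 2-sided exact permutation test over all relabellings of 6 libraries against 6, p = 0.104), with 5 of 6 MO libraries under the SAL mean. Without PFC1 the log2 fold changes were -0.08 for Gad1, -0.06 for Slc12a5, 0.06 for Slc12a2 and -0.06 for Gphn. Without MO library PFC8, Gad1 (-0.23, unadjusted p = 0.0494 in limma) and Gphn (-0.15, unadjusted p = 0.0374 in limma) lay below an unadjusted 0.05, with an adjusted p of 0.749 for both.

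Across all genes, limma with Benjamini-Hochberg adjustment called 0 of 16662 genes in males (0%) and 0 of 16717 in females (0%) at an adjusted p of 0.05, and 0 of the 8 genes. The smallest adjusted p among the 8 was 1.00 in males and 0.918 in females. At an unadjusted p under 0.05, 475 genes (2.85%) in males and 490 (2.93%) in females were called, and again 0 of the 8. The median log2 fold change of the 8 genes was -0.01 in males and -0.09 in females, beside 0.00 over all genes tested in both sexes. Without PFC1 the female median of the 8 genes was -0.03, and without PFC13 and PFC16 the male one was 0.02. When libraries were scaled to Gapdh and Ppia, the female median was 0.00 for the 8 genes and 0.09 over all genes. MO and SAL libraries overlapped for 8 of 8 genes in both sexes, and 0.0600% of all genes in males and 0.132% in females had groups that did not overlap. Of 16 exact permutation tests of single genes within a sex, 0 had a p under 0.05, against a smallest p of 0.00216 that 6 libraries against 6 allow. These p-values set a difference of means against the spread between libraries. In bulk tissue, fewer cells of a type and less RNA per cell cannot be told apart.

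Over both sexes, with sex as a term, the log2 fold change of Gphn was -0.08 (95% interval -0.16 to 0.01, unadjusted p = 0.0782 in limma), that of Gad1 -0.08 (-0.22 to 0.05), that of Slc12a5 -0.10 and that of Slc12a2 0.13. Without PFC1 these were -0.05 for Gphn, -0.04 for Gad1, -0.04 for Slc12a5 and 0.07 for Slc12a2. The model treats the 24 libraries as independent, although male and female animals shared rearing dams, so its intervals and p-values take no account of shared dams. None of 17303 genes passed an adjusted p of 0.05 (0%, 816 or 4.72% at an unadjusted 0.05), and 0 of the 8 genes did so by either criterion. Without PFC8 or without male MO library PFC10, Gphn lay below an unadjusted 0.05 in limma, at 0.0279 and 0.0344 (adjusted 0.643 and 0.810). The difference between the sexes in the response to MO passed an adjusted p of 0.05 for 0 genes (0%, 364 or 2.10% unadjusted) and for 0 of the 8. Permutation within each sex gave p-values of 0.257 for Gad1 to 0.665 for Abat for that difference.

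**Figure D2:**
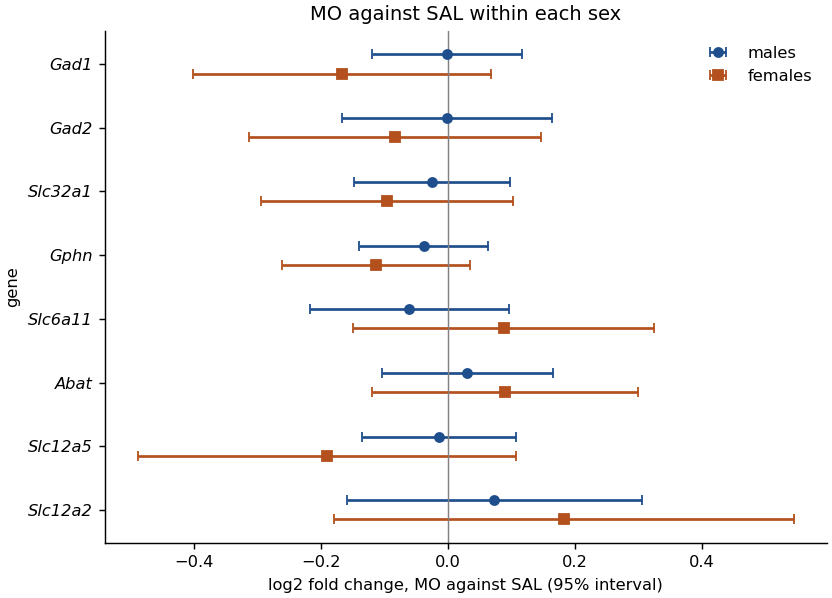
Log2 fold change of MO against SAL (x axis) for each gene (y axis) in males and females, from limma with 6 libraries per group, with bars of the 95% interval. All 16 intervals included 0, and the widest was that of female Slc12a2 (-0.18 to 0.54).

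The RNA balance of the chloride transporter genes was read as the ratio of Slc12a5 to Slc12a2 normalized counts within a library, in which library scaling cancels. This ratio pools the RNA of all cells in the tissue, and chloride transport itself was not measured. Slc12a2 lies at chr18:57878512-57946821 of GRCm38.p6. The coding transcripts used for length are 6028 and 6520 bases, so a ratio of counts is close to a ratio per length. In male SAL libraries the ratio was 9.97 in PFC9, 10.7 in PFC12, 8.92 in PFC14, 7.91 in PFC16, 10.1 in PFC18 and 9.50 in PFC20. In male MO libraries it was 8.94 in PFC10, 12.2 in PFC11, 8.45 in PFC13, 5.57 in PFC15, 10.996 in PFC17 and 8.91 in PFC19. MO libraries held both the highest and the lowest male ratio, and their mean (9.19 ± 2.30, SD, n = 6) lay near that of SAL (9.52 ± 0.991, SD, n = 6). The difference of mean log2 ratios was -0.09 (95% interval -0.50 to 0.33, exact permutation test, p = 0.675).

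In female SAL libraries the ratio was 5.26 in PFC2, 8.93 in PFC4, 8.79 in PFC6, 8.42 in PFC7, 12.7 in PFC22 and 10.96 in PFC24. In female MO libraries it was 2.84 in PFC1, 4.90 in PFC3, 7.59 in PFC5, 9.53 in PFC8, 9.44 in PFC21 and 10.7 in PFC23. The lowest ratio of the 24 libraries was that of PFC1, and ratios near 5 occurred in both groups. The female means were 7.51 ± 3.06 in MO and 9.17 ± 2.51 in SAL (SD, n = 6 each), a log2 difference of -0.37 (95% interval -1.18 to 0.43, exact permutation test, p = 0.318). Without PFC1 the difference was -0.12 (exact permutation p = 0.645), and without SAL library PFC2 it was -0.52 (exact permutation p = 0.188). Column names mark 11 libraries as combined, with no statement of what was combined. Female libraries so marked had ratios of 2.84 to 9.53, and the other female libraries had ratios of 9.44 to 12.7. Within the 4 MO and 4 SAL female libraries so marked, the difference was -0.45 (exact permutation p = 0.314), and within the 2 and 2 others it was -0.23, where 6 relabellings cannot reach 0.05. Male libraries not marked combined (4 MO, 5 SAL) differed by -0.19 (exact permutation p = 0.437).

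Between saline groups, male SAL and female SAL differed by 0.10 in mean log2 ratio (95% interval -0.36 to 0.55, exact permutation p = 0.675), and sex and table cannot be told apart. Male SAL and female SAL libraries not marked combined (5 and 2) gave -0.33 (exact permutation p = 0.0952). The ratio of the decarboxylases, Gad1 to Gad2, varied less between libraries than that of the chloride transporters. It ranged from 1.43 to 1.79 in males and from 1.44 to 1.94 in females, a 1.25-fold and a 1.35-fold range, while the chloride ratio had ranges of 2.20-fold and 4.46-fold. MO and SAL means of the Gad1 to Gad2 ratio were both 1.60 in males (SD 0.108 in each, n = 6, exact permutation p = 0.991) and were 1.59 ± 0.107 and 1.69 ± 0.160 in females (SD, n = 6 each, exact permutation p = 0.253).

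**Figure D3:**
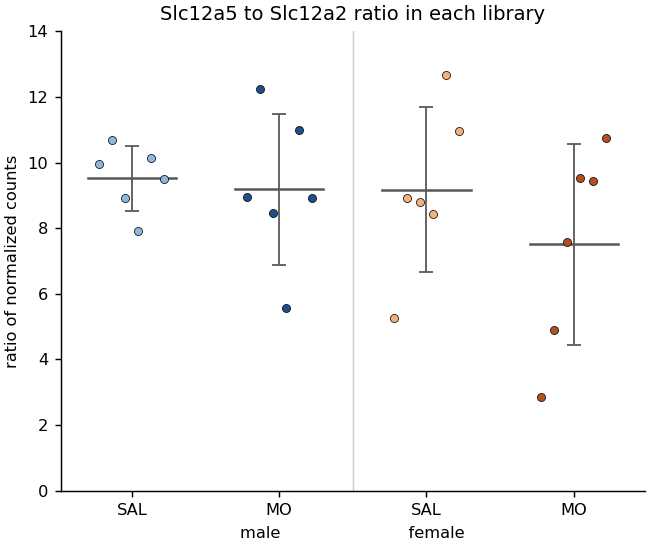
Ratio of Slc12a5 to Slc12a2 normalized counts in each library (y axis, from 0) by drug and sex (x axis), with lines at the mean and bars of 1 SD (n = 6 per group). The ratio spanned 5.57 to 12.2 in males and 2.84 to 12.7 in females, with MO and SAL points overlapping in both.

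The next question was what the spread of the ratio between libraries moved with. Each gene and ratio was set against the mean log2 level of marker genes for 5 cell types within each sex, 100 relations in all, with permutation p-values from 100000 draws. Slc12a2, which is expressed in oligodendrocytes as well as in neurons and other cells, was higher where the oligodendrocyte markers Mbp, Mog, Mag and Mobp were higher. In females the correlation was r = 0.956 (permutation p = 1e-05, the smallest these draws can give, adjusted 0.001, rho = 0.916, permutation p = 8e-05, adjusted 0.00267), and r = 0.890 without PFC1 and PFC3. In males it was r = 0.871 (permutation p = 0.00027, adjusted 0.00386, rho = 0.825, permutation p = 0.00167, adjusted 0.0334), and r = 0.676 without PFC11 and PFC15. Slc12a2 is the denominator of the Slc12a5 to Slc12a2 ratio, so the relation of the ratio is not a separate result. That relation ran the other way. It was r = -0.949 in females (permutation p = 2e-05, adjusted 0.001, rho = -0.944, permutation p = 4e-05, adjusted 0.002), -0.887 without PFC1 and PFC3 and -0.935 within the 8 libraries marked combined. In males it was r = -0.872 (permutation p = 0.00045, adjusted 0.00491, rho = -0.762, permutation p = 0.00534, adjusted 0.0485), -0.612 without PFC11 and PFC15 and -0.863 within the 9 libraries not marked combined.

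The oligodendrocyte marker sum ranged from 16559 normalized counts in PFC22, the library with the highest ratio, to 180529 in PFC1, the library with the lowest. In males it ranged from 19810 in PFC11 (highest male ratio) to 74291 in PFC15 (lowest male ratio). Female libraries marked combined had sums of 28989 to 180529, and the other female libraries had sums of 16559 to 25905. The part of the mark in the spread of the ratio was not tested. By group the sum had a median of 33012 in female MO, 42102 in female SAL, 35603 in male MO and 29562 in male SAL, with overlapping ranges. Slc12a5 itself was lower where these markers were higher in females (r = -0.873, permutation p = 0.00025, adjusted 0.00386, rho = -0.804, permutation p = 0.00279, adjusted 0.0376, r = -0.729 without PFC1 and PFC3), and in males the relation did not pass (r = -0.479, adjusted permutation p = 0.214). The Gad1 to Gad2 ratio showed no relation that passed with any of the 5 lists. In females the chloride ratio also had r = -0.872 with astrocyte markers (adjusted permutation p = 0.00808, rho = -0.713, adjusted 0.0657), 0.805 with interneuron markers (adjusted permutation p = 0.00871, rho = 0.769, adjusted 0.0485) and -0.797 with striatal markers (adjusted permutation p = 0.0378, rho = -0.650, adjusted 0.111). Without the 2 libraries farthest in each marker score these were -0.661, 0.860 and -0.705. In males none of these 3 relations passed, at r = 0.020 with astrocyte markers (adjusted permutation p = 0.980), 0.497 with interneuron markers (adjusted permutation p = 0.204) and -0.296 with striatal markers (adjusted permutation p = 0.443). By Pearson's r, 22 of 50 female and 9 of 50 male relations passed an adjusted p of 0.05. Which cells carried the Slc12a2 RNA was not tested.

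**Figure D4:**
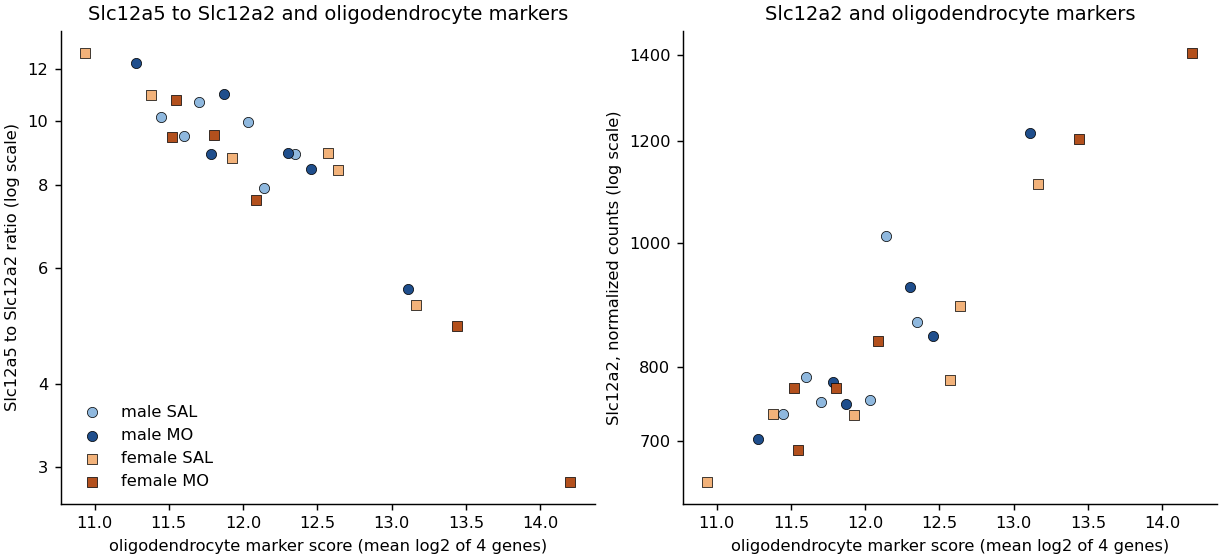
Ratio of Slc12a5 to Slc12a2 (left) and Slc12a2 normalized counts (right), both on log axes, against the mean log2 level of 4 oligodendrocyte marker genes (x axis) in each of the 24 libraries, with circles for males and squares for females. Libraries with more marker RNA had a lower ratio and more Slc12a2, and PFC1 lay at the far end of both panels (ratio 2.84, Slc12a2 1406).

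Abat and Slc6a11 moved with astrocyte markers (Aqp4, Gja1, Aldh1l1, Slc1a3 and Aldoc). Abat in both sexes and Slc6a11 in females did not move with these alone. Abat had r = 0.946 with them in females (permutation p = 5e-05, adjusted 0.00167, rho = 0.937, permutation p = 4e-05, adjusted 0.002, r = 0.930 without PFC1 and PFC24) and r = 0.859 in males (permutation p = 0.00045, adjusted 0.00491, rho = 0.811, permutation p = 0.00204, adjusted 0.034, r = 0.807 without PFC12 and PFC19). Slc6a11 had r = 0.918 in females (permutation p = 0.00014, adjusted 0.0035, rho = 0.839, permutation p = 0.00114, adjusted 0.0285, r = 0.839 without PFC1 and PFC24) and r = 0.855 in males (permutation p = 0.00054, adjusted 0.00491, rho = 0.776, permutation p = 0.00434, adjusted 0.0482, r = 0.786 without PFC12 and PFC19). Within the libraries of one marking these 4 values were 0.855 to 0.980. Female Abat also had r = 0.841 with oligodendrocyte markers (adjusted permutation p = 0.00491) and -0.865 with interneuron markers (adjusted permutation p = 0.00386). Female Slc6a11 had r = 0.770 (adjusted permutation p = 0.0148) and -0.808 (adjusted permutation p = 0.0133) with the same lists. With excitatory neuron markers, female Abat had r = -0.782 (adjusted permutation p = 0.0411) and female Slc6a11 had -0.777 (adjusted permutation p = 0.0236). With striatal markers, female Abat had r = 0.795 (adjusted permutation p = 0.0358). Without the libraries farthest in each marker score, these last values were -0.212, -0.373 and 0.341. In males neither gene passed with oligodendrocyte or interneuron markers. Male Abat had r = -0.770 with excitatory neuron markers (adjusted permutation p = 0.0152, rho = -0.713, adjusted 0.0657), and r was -0.686 without PFC10 and PFC19. Which cells carried the Abat and Slc6a11 RNA was not tested. Gad1 was also higher where astrocyte markers were higher in males (r = 0.771, permutation p = 0.00309, adjusted 0.0152), but its rho of 0.650 did not pass (permutation p = 0.026, adjusted 0.111). Gphn in males was similar (r = 0.738, adjusted permutation p = 0.0254, rho = 0.643, adjusted 0.111). In females neither relation passed, with r = -0.645 for Gad1 (adjusted permutation p = 0.0917) and -0.480 for Gphn (adjusted permutation p = 0.217). Male Gad1 was lower where excitatory neuron markers were higher (r = -0.787, adjusted permutation p = 0.0133, rho = -0.713, adjusted 0.0657), and r was -0.478 without PFC10 and PFC19.

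Among the 8 genes themselves, Gad1 varied between libraries of a sex together with Gad2 and with Slc32a1. Gad1 and Gad2 had r = 0.825 in males (permutation p = 0.00106, adjusted over 56 pairs 0.00594, rho = 0.902, permutation p = 0.00017, adjusted 0.00448) and r = 0.842 in females (permutation p = 0.00042, adjusted 0.00467, rho = 0.867, permutation p = 0.00047, adjusted 0.00658), and r = 0.639 and 0.709 without the 2 libraries farthest in Gad1. Gad1 and Slc32a1 had r = 0.690 in males (permutation p = 0.0127, adjusted 0.0301, rho = 0.699, permutation p = 0.0142, adjusted 0.041, r = 0.571 without PFC10 and PFC19) and r = 0.814 in females (permutation p = 0.00136, adjusted 0.00635, rho = 0.916, permutation p = 6e-05, adjusted 0.00336, r = 0.850 without PFC1 and PFC7). Gad2 and Slc32a1 had r = 0.468 in males, which did not pass (adjusted permutation p = 0.179), and 0.639 in females (permutation p = 0.024, adjusted 0.0463, rho = 0.727, adjusted permutation p = 0.0361). The interneuron markers were Pvalb, Sst, Vip, Lamp5, Lhx6, Adarb2, Npy and Cck, and whether they follow interneuron content alone was not tested. None of Gad1, Gad2 and Slc32a1 had a relation with these markers that passed in either sex. In males r was -0.370, -0.419 and -0.091 (adjusted permutation p = 0.362, 0.289 and 0.848). In females r was 0.647, 0.637 and 0.428 (adjusted permutation p = 0.0681, 0.0757 and 0.280). Slc6a11 and Abat had r = 0.780 in males (permutation p = 0.0035, adjusted 0.011, rho = 0.720, permutation p = 0.0103, adjusted 0.0361) and r = 0.956 in females (permutation p = 3e-05, adjusted 0.00168, rho = 0.748, permutation p = 0.00701, adjusted 0.0361), and r = 0.627 and 0.841 without the 2 libraries farthest in Slc6a11.

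Slc12a5 and Slc12a2 were opposed in females, with r = -0.874 (permutation p = 0.00016, adjusted 0.00448, rho = -0.741, permutation p = 0.00808, adjusted 0.0361, r = -0.708 without PFC1 and PFC2), and had r = -0.383 in males (permutation p = 0.221, adjusted 0.275), which turned to 0.295 without PFC11 and PFC15. Gad1 and Abat had r = 0.835 in males (permutation p = 0.00061, adjusted 0.00488, rho = 0.839, permutation p = 0.00119, adjusted 0.0111, r = 0.770 without PFC10 and PFC19) and r = -0.666 in females (permutation p = 0.0238, adjusted 0.0463, rho = -0.413, adjusted permutation p = 0.28), and the female value was -0.224 without PFC1 and PFC7. In all, 13 of 28 male pairs passed an adjusted 0.05, each positive, and 16 of 28 female pairs did, 10 positive and 6 negative. The difference between the sexes in these correlations was not tested.

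**Figure D5:**
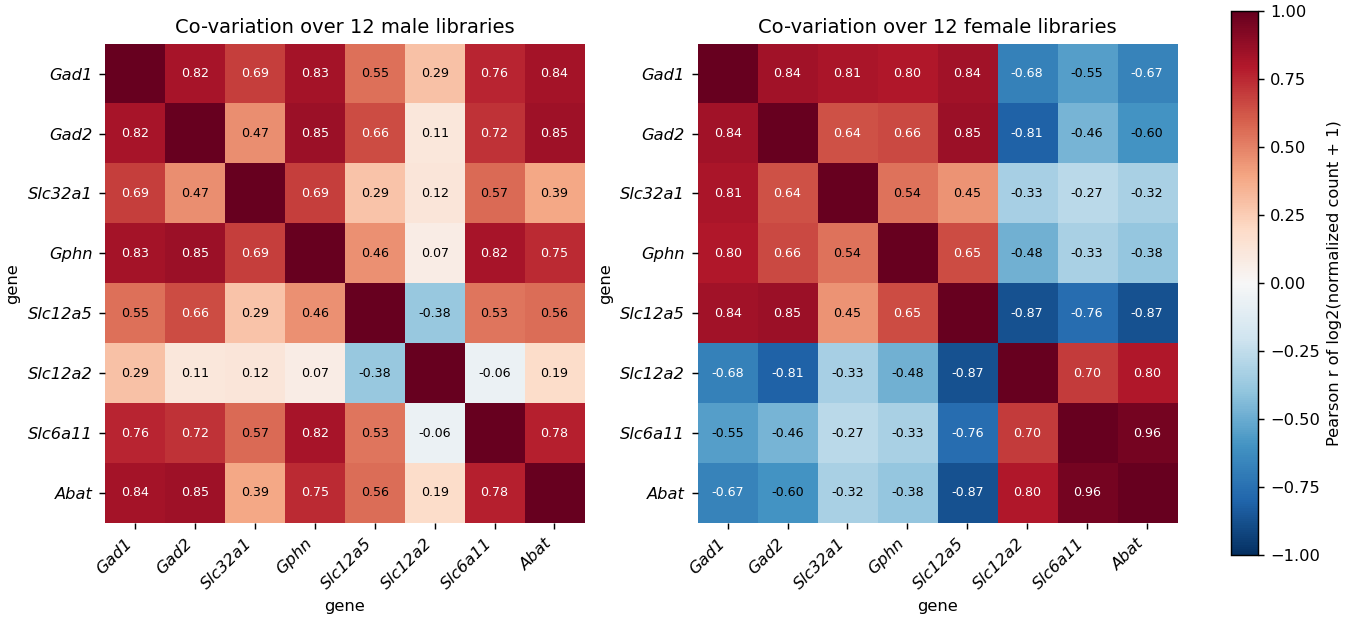
Pearson correlation of log2(normalized count + 1) between each pair of the 8 genes (both axes) over 12 male (left) and 12 female (right) libraries, with colour running from -1 to 1. Gad1, Gad2, Slc32a1 and Gphn were positively correlated in both panels, and Abat was positively correlated with Gad1 in males (0.835) and negatively in females (-0.666).

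For each of the 8 genes, the 3 genes most like it were found by the Pearson correlation of log2 values over the 24 libraries, after group means were removed, among 10503 genes that averaged 100 normalized counts or more in both tables. These values describe shared variation between libraries, which also share depth and tissue composition. Slc12a2 was most like Tspan2 (r = 0.966), Lpar1 (0.953) and Mal (0.951), all known from myelinating oligodendrocytes. Slc12a5 was most like Tecpr2 (0.966), Asxl1 (0.965) and the protocadherin gene Pcdhgc5 (0.959). Slc6a11 was most like AI464131 (0.929), Abat (0.914) and the astrocytic glutamate transporter gene Slc1a3 (0.903), and Abat was most like Zeb1 (0.961), Nwd1 (0.956) and Agpat3 (0.943). Slc32a1 had Gad1 as its second nearest gene (0.768), between Xpnpep1 (0.802) and Nono (0.757). Gad2 was most like Syt14 (0.889), Slitrk3 (0.882), a gene of inhibitory synapse adhesion, and Dock4 (0.869). Gad1 was most like the cation channel gene Trpc4 (0.912), Sec24b (0.866) and Pik3r4 (0.866), and Gphn was most like Srp72 (0.917), Usp33 (0.862) and Wdr11 (0.861). Without PFC1, PFC13 and PFC16 the first-named gene stayed among the 5 most like for each of the 8, with r from 0.822 for Xpnpep1 to 0.966 for Tspan2.

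A wider list of 44 genes of GABA uptake and breakdown, glutamine supply, chloride and bicarbonate transport, the kinases that control the cotransporters, and gephyrin partners was read from the same fits. None of the 44 passed an adjusted p of 0.05 in any comparison, and their median log2 fold change was -0.01 in either sex and in the pooled model. At an unadjusted p under 0.05, 2 of 44 genes were lower in male MO and none was higher, against 2.85% of all genes in either direction. These were Slc6a13, the gene of the transporter GAT2 of meninges and blood vessels (log2 fold change -0.53, unadjusted p = 0.0207 in limma), and Egr4, an activity-regulated transcription factor known to act on the Slc12a5 promoter (-0.44, unadjusted p = 0.0146 in limma). Slc6a13 ranged from 80.8 to 148 normalized counts in male SAL and from 35.5 to 107 in male MO, so the groups overlapped. The sum of 4 meningeal markers ranged from 1284 to 2266 in male SAL and from 773 to 1448 in male MO, and its part in the Slc6a13 difference was not tested.

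Egr4 ranged from 785 to 1225 normalized counts in male SAL (median 1012) and from 467 to 1074 in male MO (median 800.3). In females its log2 fold change of -0.41 (95% interval -1.05 to 0.22) did not pass, with 550 to 1081 normalized counts in SAL and 267 to 1222 in MO. The lowest MO value was that of PFC1, and the other female MO libraries lay between 492 and 1222. The female fold change of Egr4 without PFC1 is not given. No gene of the list lay below an unadjusted 0.05 in females. Over both sexes Egr4 (-0.43, unadjusted p = 0.0254 in limma) and Stk39 (-0.07, unadjusted p = 0.0223 in limma), the gene of the kinase SPAK that phosphorylates both cotransporters, did so, 2 of 44 beside 4.72% of all genes. Without PFC1, PFC13 and PFC16, 0 of the 44 did so over both sexes.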

How the data were processed

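RNA of the mPFC was sequenced by the authors as single 85-base reads from directional polyA libraries, aligned to mm10 (RefSeq) with STAR, quantified with Salmon and compared with DESeq2. The deposited files hold a signal, namely counts normalized by the authors, for 24972 genes in 2 tables, 1 per sex and normalized separately. They are not whole numbers and do not return whole reads, so limma on log2(value + 1) replaced the count test of the study, and fold changes on that scale understate those of low genes. The value of 1 read was taken as the most frequent low value of a library, which gives the depth only as an estimate. Labels gave group, sex and library name, and all 24 columns were matched to a sample. Nothing in the labels ties libraries of different groups together.

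A gene was kept where its total over the compared libraries reached 10. MO was compared with SAL by limma 3.58.1 (R 4.3.3, empirical Bayes with trend, 2-sided, Benjamini-Hochberg over all genes kept), within each sex, over both sexes with sex as a term, and as the interaction. Single genes and ratios were tested by 2-sided exact permutation over all relabellings (Python 3.11.15, SciPy 1.17.1). The fit was tested on simulated data. The 8 genes, the 44 pathway genes and the marker lists were chosen with earlier results of these data known. Genes named in the text are the 8, the 3 most like each, and pathway genes below an unadjusted 0.05, up to 4 in each direction. Some genes of the original lists are not reported here and entered no list or score. The test of correlations between members was added after the data were seen. Alternatives changed the filter, the pseudocount and the scaling, added a term for combined libraries or for a marker score, and left out libraries. Those with the oligodendrocyte score, without PFC1, PFC13 and PFC16, and with ratios split by the mark for combined libraries were chosen after seeing the data. Sequences came from RefSeq promoter windows of GRCm38.p6, with exons and transcript lengths from GENCODE M21, and all 8 genes matched by symbol.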

Additional observations from a re-analysis of the deposited data

How the results depend on the processing

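The count of genes past an adjusted p of 0.05 stayed at 0 for all genes, for the 8 genes and for the pathway list under every other setting tried and with each library left out in turn. Of 240 log2 fold changes of the 8 genes recomputed under other settings, 13 changed sign, as did 19 of 384 recomputed with 1 library left out, none of them past a threshold. In males the fold changes near 0 turned for Gad1 (0.00049 with equal library sums, 0.014 without PFC1, PFC13 and PFC16), for Gad2 (0.0015 with equal sums, 0.0065 with a striatal term, 0.031 without the 3 libraries), for Slc12a5 (0.013 with an oligodendrocyte term, 0.017 without the 3) and for Slc12a2 (-0.029 with an oligodendrocyte term). Female Gad2 turned to 0.0082 when scaled to Gapdh and Ppia. Over both sexes Gad2 turned to 0.011 without the 3 libraries, and Slc6a11 to -0.0030 with a term for combined libraries, -0.026 with an oligodendrocyte term and -0.034 without the 3. The Gad1 to Gad2 ratio turned to 0.065 in females and 0.049 in males among libraries not marked combined, and the difference of the chloride ratio between saline groups turned to -0.33 there. The cause was not tested.

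With 1 library left out, male fold changes ranged from -0.038 to 0.038 for Gad1, -0.058 to 0.048 for Gad2, -0.055 to 0.011 for Slc32a1, -0.049 to 0.020 for Slc12a5 and -0.029 (without PFC15) to 0.14 for Slc12a2, and Slc6a11 over both sexes from -0.031 to 0.052. Log2 differences of the chloride ratio ranged from -0.18 to 0.049 in males, -0.52 to -0.12 in females and -0.053 to 0.20 between saline groups, and those of the Gad1 to Gad2 ratio from -0.035 to 0.020 in males. Among all genes at an unadjusted p under 0.05, scaling to Gapdh and Ppia changed the split of higher and lower from 302 and 188 to 624 and 47 in females, from 222 and 253 to 97 and 193 in males, from 434 and 382 to 610 and 90 over both sexes, and from 232 and 132 to 438 and 44 for the interaction, whose median over all genes was then 0.11. The same count was 842 without PFC8 and 827 without PFC21 in females, 1326 without PFC8 and 451 without the 3 libraries over both sexes, and 665 without PFC21 or 233 with a mean of at least 10 for the interaction. No paired analysis was possible because each library has its own number and no number recurs between groups.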
